A study of Mus musculus with 8 samples.

Results

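Lysosomal hydrolases and membrane proteins are the enzymes that digest material inside the lysosome and the proteins of the membrane around them. The 39 genes described here were named individually, and for each the brightest array probe over 8 arrays stood for the gene. All 39 had a probe, 37 under the gene name in the files and 2, Tfeb and Tfe3, under the older symbols Tcfeb and Tcfe3. They make up 39 of the 19156 genes tested, and all 39 were well above background on each of the 8 arrays. They comprise 6 proteases, 12 glycosidases, 4 sulfatases, 4 enzymes that act on lipids or fatty acyl groups, 3 activator or accessory proteins, 7 membrane proteins and 3 transcription factors.

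The cells were bone marrow-derived macrophages (BMDMs), which differentiate in culture from marrow cells. BMDMs of 4 male C57BL/6J mice received siRNAs directed at the terminal loop of Y RNAs and, in parallel, a control siRNA. Each group held 4 arrays. The labels write the siRNAs against Y RNAs in the plural, and together they are called the Y RNA siRNA here. Y RNAs are short noncoding transcripts found in complexes with Ro60 and La, and the series looks for targets of the small RNAs derived from them (s-RNYs). Strain, sex and cell type were common to both groups, and the sources used here give no sequence, dose or timing of the siRNAs. The labels give 0.2 µg of RNA per sample and an RNA integrity number of 10, except for the control sample of mouse 4, which had 8. 0 of the probes carry the name of a Y RNA, so the siRNA target itself was not analysed here.

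The lysosome is an acidic compartment in which hydrolases with low pH optima break down proteins, glycans, sulfated sugars and lipids. Most hydrolases are made in the endoplasmic reticulum and delivered through the mannose 6-phosphate pathway, and an inherited lack of one of them usually causes a lysosomal storage disease. Macrophages are rich in lysosomes because they digest what they engulf. TFEB, TFE3 and MITF are related transcription factors that bind E-boxes in promoters of lysosomal genes, and the kinase mTORC1 holds TFEB and TFE3 in the cytoplasm when nutrients are plentiful.

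Promoter sequence from RefSeq (GRCm38.p6) is shown first because the products of Tfeb, Tfe3 and Mitf bind E-boxes in promoters of lysosomal genes. Whether they act on the windows searched here was not tested. The windows searched ran from 250 bases before to 50 bases after an annotated start, and 45 windows were matched by symbol to 36 members, with none for Ctsb, Ctsh and Asah1. The E-box searched was CACGTG, which reads the same on both strands. It was found in windows of 11 members, or 24.4% of the 45 windows, against 7.15% of all 32851 windows in the table. The longer palindrome TCACGTGA, which contains the E-box, was found in 5 members (Cln3, Ctsa, Ctsd, Gla and Mcoln1), or 11.1% of member windows against 0.974% of all windows. That palindrome with 1 more base on each side, a G before it and a C after it, was found in Cln3 alone, 2.22% of member windows against 0.326% of all windows. A match describes these letters and is not evidence of binding. Stretches of 100 bases upstream of the start follow for 6 members with a single annotated window, 5′ to 3′ on the strand of the gene, in lower case with each E-box in capitals.
Lamp1 (chr8:13159061-13159160, plus strand): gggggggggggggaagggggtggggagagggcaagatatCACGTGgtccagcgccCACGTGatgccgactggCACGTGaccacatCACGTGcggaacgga
Mcoln1 (chr8:3500419-3500518, plus strand): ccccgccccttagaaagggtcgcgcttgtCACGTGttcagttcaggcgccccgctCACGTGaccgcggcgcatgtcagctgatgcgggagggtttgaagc
Ctsd (chr7:142387858-142387957, minus strand): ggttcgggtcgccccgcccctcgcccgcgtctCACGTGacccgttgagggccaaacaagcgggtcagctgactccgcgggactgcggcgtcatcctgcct
Gla (chrX:134601156-134601255, minus strand): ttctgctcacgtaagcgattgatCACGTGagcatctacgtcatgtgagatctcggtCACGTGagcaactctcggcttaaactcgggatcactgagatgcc
Naglu (chr11:101069994-101070093, plus strand): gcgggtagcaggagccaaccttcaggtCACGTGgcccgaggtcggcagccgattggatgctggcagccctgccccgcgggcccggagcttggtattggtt
Glb1 (chr9:114400978-114401077, plus strand): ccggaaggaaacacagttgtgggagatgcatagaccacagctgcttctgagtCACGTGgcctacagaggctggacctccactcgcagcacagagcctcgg
Lamp1 carried 4 E-boxes within this stretch, Mcoln1 and Gla carried 2 each, and the other three carried 1 each. In Gla both copies were the longer palindrome, 227 and 194 bases before the start. In Mcoln1 the copy 45 bases before the start was the longer palindrome and the copy 71 bases before it was not. The plot of E-box positions sets these beside the other members with a match.

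**Figure D1:**
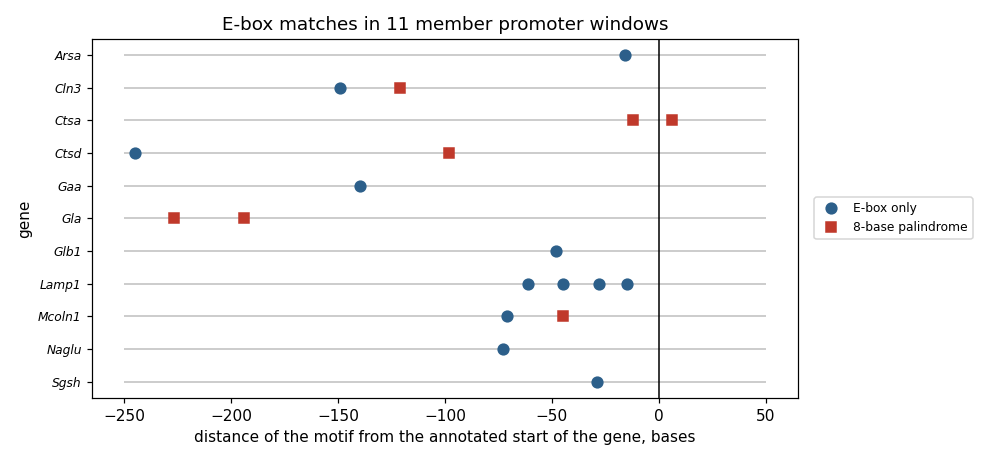
Positions of E-box matches in the promoter windows of 11 members, in bases from the annotated start of the gene (vertical line). Squares are matches that extend to the 8-base palindrome and circles are the E-box alone. Lamp1 has 4 matches within 61 bases of its start, and 5 members carry the longer form.

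These genes gave some of the strongest signals on the arrays. A level is the log2 signal of the probe with the 75th percentile of its array set to 0, so 0 is the signal that 25% of the probes exceeded. The members had a median percentile of 90.6 among all genes tested, 21 of 39 lay above the 90th percentile where 10% of all genes lie, and 15 lay in the top 5%. Signal depends on the probe as well as on the amount of transcript, so the order describes probes and is only a rough guide to transcript amounts. In 15 genes with more than 1 probe above background, the probes of a gene lay between 0.15 (Lamp2) and 10.05 (Gaa) log2 units apart. The dim probes of Gaa and Gm2a sat at -4.26 and -3.67, while the probes chosen for these genes sat at 5.79 and 2.27.

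Ctsd, which encodes the aspartic protease cathepsin D, had the highest level, 9.33 ± 0.061 (SD over 8 arrays), at percentile 99.99 of all genes. Its 60-base probe lies at chr7:149561962-149562021 of mouse build mm9, per the files. Ctsd read 9.45, 9.33, 9.25 and 9.34 with the Y RNA siRNA, against 9.36, 9.27, 9.31 and 9.32 with the control siRNA, in the order mouse 1 to 4, which is kept throughout. The groups overlapped, and the arrays of all 4 mice ran from 9.25 to 9.45. Lamp1, an abundant glycoprotein of the lysosomal membrane, came next at 8.82 ± 0.084, and Ctsb, the cysteine protease cathepsin B, followed at 8.56 ± 0.071. The order of Ctsd before Lamp1 and of Lamp1 before Ctsb held on all 8 arrays. Ctsb and the tetraspanin gene Cd63 (8.54 ± 0.099) differed by 0.026 and changed places between arrays. Psap, whose product is cut into the saposins that present sphingolipids to hydrolases, was next at 8.30 ± 0.14. Of the 38 neighbouring pairs in the order, 21 kept their order on all 8 arrays and 17 did not.

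The lowest level belonged to Arsb, the sulfatase that trims dermatan and chondroitin sulfate, at -1.98 ± 0.31, the only member below the 75th percentile of the arrays. The probe lies at chr13:94712040-94712099 of mm9. Arsb read -2.05, -1.82, -1.63 and -1.99 with the Y RNA siRNA, against -2.62, -1.76, -1.80 and -2.20 with the control siRNA. Its SD over the 8 arrays was the largest of the members, and the control array of mouse 1 was the lowest of the 8. Galc, the galactosylceramidase that is deficient in Krabbe disease, stood at 0.93 ± 0.097, Tfeb at 1.08 ± 0.13 and Ids, the iduronate sulfatase deficient in Hunter syndrome, at 1.09 ± 0.17. These 3 could not be ordered, because neighbours among them changed places between arrays. Above them was a gap of 1.17 to Gm2a, the activator that lifts the ganglioside GM2 out of membranes for hexosaminidase A.

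**Figure D2:**
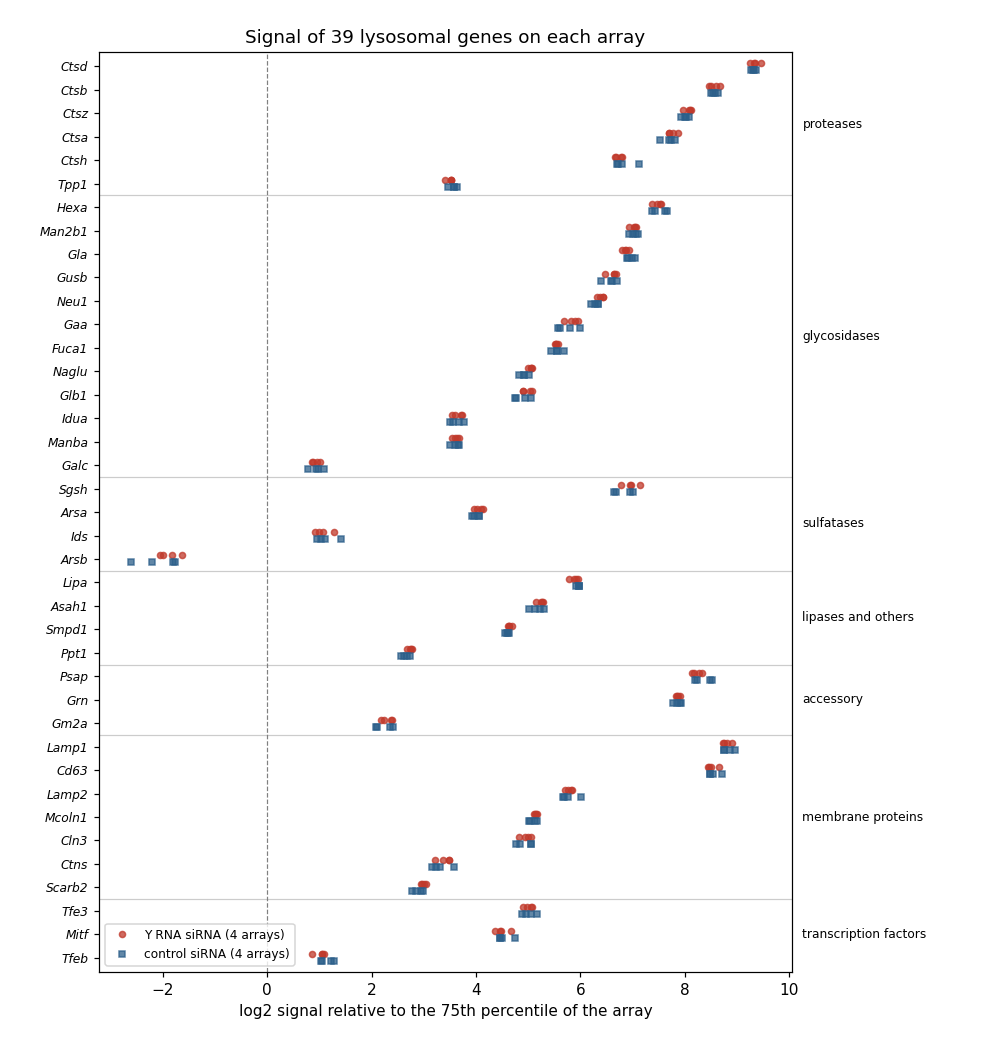
Log2 signal of the 39 members relative to the 75th percentile of each array (dashed line at 0), with 4 Y RNA siRNA arrays (circles, upper) and 4 control siRNA arrays (squares, lower) per gene. Genes are grouped by role and ordered by level within a role. Ctsd is highest at 9.33 and Arsb lowest at -1.98, and the circles and squares of each gene overlap.

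No member was called between the siRNAs at an adjusted p under 0.05. The comparison asks whether these transcripts change when Y RNAs are targeted. In limma over all 19156 genes 0% were called, and 0 of 39 members were, with an adjusted p of 1.00 for each. At an unadjusted p under 0.05 the fit called 3.4% of all genes and 0 members. The differences of the members, Y RNA siRNA minus control siRNA on the log2 scale, ran from -0.14 for Tfeb to 0.22 for Arsb, with a median of 0.013 beside 0.0045 over all genes. 22 members were higher and 17 lower, or 56.4% higher beside 52.2% of all genes and 60.6% of the 1777 other genes at least as bright as the median member. By the brightest probe, in 0 members did the 2 groups fail to overlap, while 1.34% of all genes lay wholly higher and 1.08% wholly lower with the Y RNA siRNA.

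The arrays bounded these differences closely. For 38 of the 39 members the 95% interval of the fit lay within 1.5-fold in either direction, as it did for 84.7% of all genes and 97.9% of those 1777 bright genes, and the exception was Arsb. All 39 lay within 2-fold, beside 95.6% of all genes. The median standard error of a member was 0.075. Among the 15 genes with several probes, 6 had probes that disagreed in the sign of the difference (Arsb, Cln3, Ctsa, Fuca1, Gaa and Idua). A p that misses the threshold does not show that a level was equal in both groups. These intervals come from the fit without a mouse block, and differences smaller than them were not detectable in that fit. With mouse as a fixed block the intervals of 17320 of all 19156 genes lay within 1.5-fold, against 16231 without it.

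**Figure D3:**
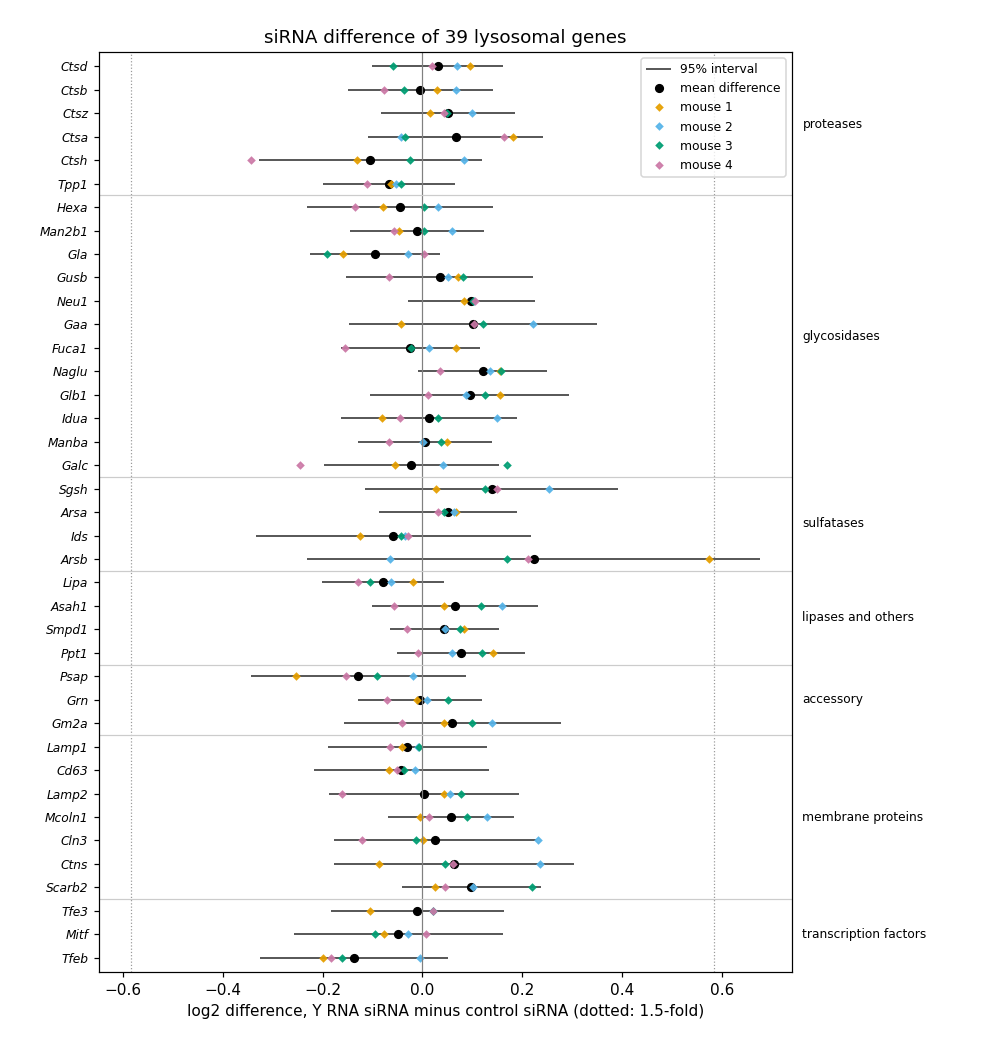
Log2 difference of each member, Y RNA siRNA minus control siRNA. Black points are means over 4 mice and coloured diamonds the differences within each mouse. Bars are the 95% intervals of the limma fit without a mouse block. Dotted lines mark 1.5-fold. All 39 intervals reach across 0, and that of Arsb alone passes a dotted line.

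Because the 2 arrays of a mouse resembled each other, the same differences were also taken within mice. With mouse as a fixed block, 9.31% of all genes and 4 members (Naglu, Neu1, Sgsh and Tfeb) had an unadjusted p under 0.05, a share of the members close to that of all genes. After adjustment 0% of all genes and 0 members were called, and the smallest adjusted p of a member was 0.498, for Naglu. With mouse as a random block, 0.0574% of all genes and 0 members were called. 7 members were higher with the Y RNA siRNA in all 4 mice (Ctsz, Sgsh, Neu1, Naglu, Glb1, Arsa and Scarb2), beside 10.4% of all genes. 7 others were lower in all 4 mice (Lamp1, Cd63, Psap, Lipa, Tpp1, Ids and Tfeb), beside 8.83% of all genes.

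The proteases showed no shared direction: 3 of 6 were higher, with a median difference of 0.013. Ctsb read 8.67, 8.60, 8.47 and 8.50 with the Y RNA siRNA, against 8.64, 8.53, 8.51 and 8.58 with the control siRNA. The groups interleaved, with a difference of -0.0046 (SE 0.063, 95% interval -0.15 to 0.14). Ctsd differed by 0.031 (SE 0.057, 95% interval -0.10 to 0.16). Ctsh, cathepsin H, an aminopeptidase, had the most negative difference of this group. Ctsh gave 6.67, 6.80, 6.69 and 6.77 with the Y RNA siRNA, against 6.80, 6.72, 6.71 and 7.12 with the control siRNA, a difference of -0.10 (SE 0.097, 95% interval -0.33 to 0.12). Its control array of mouse 4, the sample with the lower RNA integrity number, was the highest of the 8, and the other seven lay between 6.67 and 6.80. Without that array the difference was -0.011. Cathepsin Z (Ctsz, 0.052) and cathepsin A (Ctsa, 0.066), the carboxypeptidase that also shields neuraminidase 1 and beta-galactosidase, were on the positive side, and Tpp1 (-0.067), the tripeptidyl peptidase of late infantile neuronal ceroid lipofuscinosis, on the negative side. The fainter Ctsa probe gave -0.11, opposite in sign to the brighter one.

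Of the 12 glycosidases 7 were higher and 5 lower, with a median difference of 0.0092. Naglu, the N-acetylglucosaminidase of heparan sulfate breakdown, had the smallest p of the members in both fits. Its probe lies at chr11:100938631-100938690 of mm9. Naglu read 5.08, 5.05, 4.99 and 5.05 with the Y RNA siRNA, against 4.93, 4.92, 4.83 and 5.02 with the control siRNA, a difference of 0.12 (SE 0.056, 95% interval -0.0086 to 0.25). The signal was higher with the Y RNA siRNA in every mouse, but the control array of mouse 4 lay above the Y RNA siRNA array of mouse 3, so the groups overlapped. Its unadjusted p was 0.064, and 0.032 with mouse as a block. Neu1, the lysosomal sialidase, was likewise higher in every mouse with overlapping groups. Neu1 showed 6.42, 6.38, 6.31 and 6.44 with the Y RNA siRNA, against 6.34, 6.28, 6.21 and 6.34 with the control siRNA, a difference of 0.098 (SE 0.055, 95% interval -0.030 to 0.23). Its 4 within-mouse differences ran from 0.082 to 0.11.

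Gaa, the acid alpha-glucosidase that degrades glycogen, was more variable. Gaa read 5.95, 5.83, 5.68 and 5.90 with the Y RNA siRNA, against 5.99, 5.60, 5.56 and 5.80 with the control siRNA, a difference of 0.10 (SE 0.11, 95% interval -0.15 to 0.35). Without the control array of mouse 1 it was 0.18. It was lower with the Y RNA siRNA in mouse 1 and higher in the other three mice. Gla, the alpha-galactosidase deficient in Fabry disease, lay on the other side. Gla read 6.88, 6.86, 6.79 and 6.92 with the Y RNA siRNA, against 7.04, 6.89, 6.98 and 6.92 with the control siRNA, a difference of -0.095 (SE 0.056, 95% interval -0.22 to 0.035). The difference was -0.16 in mouse 1 and -0.19 in mouse 3, and 0.0022 in mouse 4. Galc read low on every array. Galc had 0.87, 1.01, 0.96 and 0.85 with the Y RNA siRNA, against 0.93, 0.97, 0.79 and 1.10 with the control siRNA, a difference of -0.023 (SE 0.076, 95% interval -0.20 to 0.15), with 2 mice on each side of 0. The other glycosidases were Glb1, the beta-galactosidase (0.094), Gusb, the beta-glucuronidase (0.034), Idua, the alpha-iduronidase (0.013), Manba, the beta-mannosidase (0.0050), Man2b1, the alpha-mannosidase (-0.011), Fuca1, the alpha-fucosidase (-0.024), and Hexa, the alpha subunit of hexosaminidase A (-0.045). A second, dimmer Gusb probe gave 0.19 with an unadjusted p of 0.0096 in the fit over all kept probes. Its groups did not overlap, at 4.13 to 4.29 with the Y RNA siRNA and 3.93 to 4.04 with the control siRNA. Among all genes, by the brightest probe, 3.4% had an unadjusted p under 0.05 and 1.34% lay wholly higher.

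The sulfatases remove sulfate from glycosaminoglycans and sulfolipids, and 3 of 4 were higher, with a median difference of 0.095. Sgsh, the heparan N-sulfatase, had the most positive difference after Arsb. Sgsh read 6.97, 6.94, 6.78 and 7.15 with the Y RNA siRNA, against 6.95, 6.69, 6.65 and 7.00 with the control siRNA, a difference of 0.14 (SE 0.11, 95% interval -0.11 to 0.39). Every mouse was higher with the Y RNA siRNA, by 0.027 in mouse 1 and up to 0.25 in mouse 2. The range of its mouse means, 0.361, was larger than this difference, and the groups overlapped. Ids was lower in every mouse, with differences of -0.030 to -0.12. Ids read 1.28, 0.99, 0.91 and 1.08 with the Y RNA siRNA, against 1.41, 1.02, 0.95 and 1.11 with the control siRNA, a difference of -0.058 (SE 0.12, 95% interval -0.33 to 0.22). Both mouse 1 arrays were the highest for Ids. Arsb had the largest difference, 0.22 (SE 0.20, 95% interval -0.23 to 0.68), of which mouse 1 gave 0.57 and mouse 2 gave -0.065. Without the control array of mouse 1 it was 0.048, and its second probe gave -0.0073. Arsa, the arylsulfatase of sulfatide breakdown, differed by 0.051.

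Among the enzymes of lipid and fatty acyl breakdown, 3 of 4 were higher, with a median difference of 0.055. Lipa, the acid lipase that hydrolyses cholesteryl esters and triglycerides, was the exception. Lipa read 5.95, 5.91, 5.88 and 5.79 with the Y RNA siRNA, against 5.97, 5.97, 5.98 and 5.92 with the control siRNA, a difference of -0.079 (SE 0.053, 95% interval -0.20 to 0.043). It was lower with the Y RNA siRNA in every mouse, with differences from -0.020 in mouse 1 to -0.13 in mouse 4, and the groups overlapped. The acid ceramidase Asah1 (0.066), the acid sphingomyelinase Smpd1 (0.043) and the palmitoyl-protein thioesterase Ppt1 (0.077) were each higher in 3 of 4 mice.

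Of the 3 activator and accessory proteins 1 was higher, with a median difference of -0.0057. Psap read 8.28, 8.18, 8.14 and 8.33 with the Y RNA siRNA, against 8.53, 8.19, 8.23 and 8.49 with the control siRNA, a difference of -0.13 (SE 0.093, 95% interval -0.34 to 0.087). Every mouse was lower with the Y RNA siRNA, with differences of -0.25 in mouse 1 and -0.018 in mouse 2, and with mouse as a block the unadjusted p was 0.057. Gm2a stood at 2.39, 2.23, 2.19 and 2.37 with the Y RNA siRNA, against 2.35, 2.09, 2.09 and 2.41 with the control siRNA, a difference of 0.060 (SE 0.094, 95% interval -0.16 to 0.28), or 0.011 to 0.118 on leaving out single arrays or mice. For Gm2a the arrays of mice 1 and 4 lay above those of mice 2 and 3 in both groups. Grn, the precursor of granulins and a regulator of lysosomal acidification and hydrolase activity, had one of the smallest differences. Grn read 7.90, 7.85, 7.82 and 7.86 with the Y RNA siRNA, against 7.91, 7.84, 7.77 and 7.93 with the control siRNA, a difference of -0.0057 (SE 0.054, 95% interval -0.13 to 0.12).

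Of the 7 membrane proteins 5 had differences above 0, with a median of 0.025, and 0 passed the test. Lamp2 and Cln3 are among the 5, and their sign turned under other settings (Lamp2 to -0.014 with the deposited table, Cln3 to -0.0015 with the mean of all kept probes). Lamp1 read 8.91, 8.74, 8.75 and 8.80 with the Y RNA siRNA, against 8.95, 8.75, 8.75 and 8.87 with the control siRNA, a difference of -0.030 (SE 0.069, 95% interval -0.19 to 0.13). Lamp2, its partner glycoprotein and the receptor of chaperone-mediated autophagy in one of its isoforms, gave a mean near 0 over mice that did not move together. Lamp2 read 5.71, 5.82, 5.76 and 5.84 with the Y RNA siRNA, against 5.67, 5.76, 5.69 and 6.01 with the control siRNA, a difference of 0.0034 (SE 0.083, 95% interval -0.19 to 0.19). Mice 1 to 3 were higher by 0.043 to 0.077 and mouse 4 gave -0.16. Cd63 read 8.65, 8.47, 8.44 and 8.50 with the Y RNA siRNA, against 8.72, 8.48, 8.47 and 8.55 with the control siRNA, a difference of -0.042 (SE 0.076, 95% interval -0.22 to 0.13), with -0.014 to -0.068 in the 4 mice. Mcoln1, the calcium channel TRPML1 whose opening activates calcineurin and TFEB, was tightly measured. Mcoln1 read 5.17, 5.16, 5.10 and 5.14 with the Y RNA siRNA, against 5.17, 5.03, 5.01 and 5.13 with the control siRNA, a difference of 0.057 (SE 0.055, 95% interval -0.070 to 0.18). Scarb2, an abundant integral protein of the lysosomal membrane, differed by 0.098 and was higher in all 4 mice, while Ctns, the cystine exporter, differed by 0.064 and Cln3, the membrane protein of juvenile Batten disease, by 0.025.

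The 3 transcription factors had differences below 0, with a median of -0.048, and 0 of them passed the test. Tfeb had the most negative difference of the 39, a rank that went to Psap without the Y RNA siRNA array of mouse 3, where Tfeb gave -0.088, and to Psap, Lipa, Ctsh or Gla under some other settings. Its probe lies at chr17:47929089-47929148 of mm9. Tfeb read 1.08, 1.05, 0.86 and 1.04 with the Y RNA siRNA, against 1.28, 1.06, 1.02 and 1.23 with the control siRNA, a difference of -0.14 (SE 0.081, 95% interval -0.33 to 0.050). It was lower with the Y RNA siRNA in every mouse, with differences of -0.20, -0.0056, -0.16 and -0.18, and its unadjusted p was 0.130, or 0.039 with mouse as a block (adjusted p = 0.516). The Y RNA siRNA array of mouse 3 was the lowest of the 8, and the other three arrays of that siRNA overlapped the controls. Tfe3 read 5.06, 4.97, 4.91 and 5.07 with the Y RNA siRNA, against 5.17, 4.95, 4.89 and 5.05 with the control siRNA, a difference of -0.010 (SE 0.075, 95% interval -0.18 to 0.16). Tfe3 was lower with the Y RNA siRNA in mouse 1 alone, with a difference of -0.11 there, and gave 0.021 in each of the other three mice, and its sign turned with normexp, median centring, the deposited table and array weights (0.0044 to 0.031). Mitf read 4.67, 4.46, 4.36 and 4.48 with the Y RNA siRNA, against 4.74, 4.49, 4.46 and 4.47 with the control siRNA, a difference of -0.048 (SE 0.091, 95% interval -0.26 to 0.16). For Mitf both arrays of mouse 1 were the highest of their group. As a description only, the 11 members with an E-box in the window had a median difference of 0.057, with 9 higher, and the 25 members whose windows held none had -0.0057, with 12 higher. Higher were also 52.2% of all genes and 60.6% of the 1777 other genes at least as bright as the median member. The members with and without an E-box differed in signal too, at median percentiles of 93.2 and 87.1. Their contrast was not tested, and 0 members were called.

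No member was called between mice. The 2 arrays of a mouse were compared with those of other mice in a fit of siRNA plus mouse. That F test called 4.67% of all genes and 0 of 39 members, the nearest being Ids with an adjusted p of 0.0543 and Mitf with 0.0969. The range of the 4 mouse means had a median of 0.188 among members, from 0.063 (Smpd1) to 0.616 (Arsb), against 0.254 over all genes tested and 0.191 over the 1777 other genes at least as bright as the median member. Ids had mouse means of 1.35, 1.00, 0.93 and 1.09 for mice 1 to 4, and Mitf had 4.71, 4.48, 4.41 and 4.47. Mouse 1 was the highest for both.

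Mouse 3 gave the lowest mean for most members. That ranking was noticed after the values were seen. Mouse 3 was lowest for 28 of 39 members, beside 32.9% of all genes and 48.2% of the bright genes. The macrophage markers shared this order, with 7 of 8 (87.5%) lowest in mouse 3, while 32.7% of the 101 other pathway genes were. Cd68 was counted in both of these sets. The lists of these pathway genes differed. Mouse 3 was lowest for 45.5% of other membrane proteins, 40.7% of the list of other hydrolases and 40% of mTORC1 and TFEB control genes. It was lowest for 13.3% of sorting genes and 11.8% of proton pump subunits. For the members, mice 1, 2 and 4 were lowest for 6 (33.1% of all genes), 3 (17.6%) and 2 (16.4%). Taken within each siRNA, mouse 3 was the lowest of the 4 Y RNA siRNA arrays for 27 members (31.2% of all genes) and the lowest of the 4 control arrays for 26 (29.5% of all genes). The median deviation of the members from their own means was -0.080 in mouse 3, against 0.051 in mouse 1, -0.012 in mouse 2 and 0.049 in mouse 4, and that of the macrophage markers in mouse 3 was -0.13. Their part in the member values was not tested. The highest means belonged to mouse 1 for 18 members (36.3% of all genes) and to mouse 4 for 17 (23.6% of all genes). Gusb and Arsb were among the exceptions and were lowest in mouse 1, with Gusb at 6.43 there and 6.61 to 6.67 in the other mice. Under the other normalizations, filters and probe rules tried, mouse 3 was lowest for 23 to 29 members. These are values of 1 animal, 1 culture and 1 place on the slide, which cannot be told apart.

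**Figure D4:**
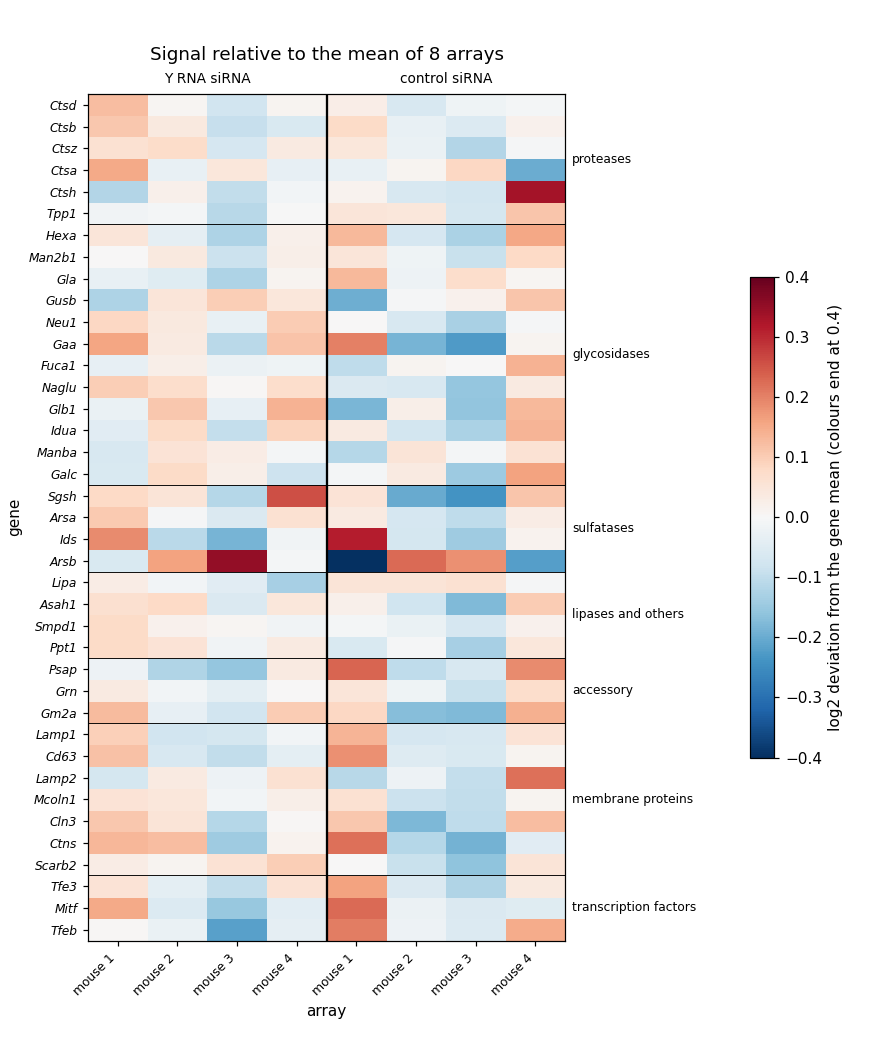
Log2 deviation of each member from its mean over 8 arrays, with the 4 Y RNA siRNA arrays on the left and the 4 control siRNA arrays on the right, mice 1 to 4 in each. Red is above and blue below the gene's mean, and colours end at 0.4 either way. The mouse 3 columns are mostly blue in both groups, with median deviations of -0.069 and -0.096.

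The control array of mouse 4, the sample with an RNA integrity number of 8, was the highest of the 4 controls for 20 of 39 members, beside 28.2% of all genes, and the lowest for 2. Its median deviation over the members was 0.052. Without it the median difference was 0.033 and 27 members were higher. Without the control array of mouse 1 the count was also 27, with a median of 0.037, and without mouse 2 altogether it was 19, with a median of -0.010. The Y RNA siRNA array of mouse 4, with a number of 10, was the highest of its group for 10 members (18.4% of all genes). The arrays of mouse 1, also at 10, were the highest of their groups for many members. The counts were 20 with the Y RNA siRNA (36.2% of all genes) and 16 with the control siRNA (33%). The part of RNA quality in these values was not tested.

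The count of members higher with the Y RNA siRNA differed from mouse to mouse, and in mouse 2 it lay furthest from the share of all genes. 28 of 39 were higher with the Y RNA siRNA in mouse 2 (51.3% of all genes) and 16 of 39 in mouse 4 (44.6% of all genes). Mice 1 and 3 had 20 (56.3% of all genes) and 24 (55.2% of all genes). The median differences of the members were 0.0019, 0.055, 0.037 and -0.041 in mice 1 to 4, beside 0.023, 0.0045, 0.015 and -0.019 over all genes. These medians were positive in mice 1 to 3 and negative in mouse 4, which was the animal whose control sample had the lower RNA integrity number.

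The other genes of the pathway were not called for the siRNA either. Of 103 other genes of the lysosome, of sorting to it and of its control, 101 were tested. Of these 46 were higher and 55 lower, with a median difference of -0.0070, and 0 were called. Of the 17 subunits of the proton pump that acidifies the lysosome 5 were higher (median -0.023). Of 27 genes tested from the list of other hydrolases 12 were higher (median -0.0079). That list also holds Sumf1, Hgsnat and Npc2, which are not hydrolases. Among 22 other membrane proteins 11 were higher (median -0.0024), among 15 sorting genes 9 (median 0.021), and among 20 genes of mTORC1 and TFEB control 9 (median -0.015). No pathway gene named here passed the test, though the arrays of some did not overlap between the siRNAs. Npc1, a cholesterol exporter of the lysosomal membrane (0.12), Sumf1, which activates all sulfatases (0.12), and the pump subunit Atp6v1f (0.12) were among those higher without overlap, and the pump subunit Atp6v0b (-0.070) and the mTOR partner Mlst8 (-0.038) were lower without overlap. Among all genes 1.34% were higher without overlap and 1.08% lower.

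Other pathway genes with the smallest p of their list were the pump subunits Atp6v1b2 (-0.23) and Atp6v1g1 (0.069), the protease Ctss (-0.11) and the acetyltransferase Hgsnat (-0.20). From the membrane list they included the cation channel Tpcn1 (-0.097) and the nucleoside transporter Slc29a3 (0.14). From the sorting list they were the mannose 6-phosphate receptors M6pr (0.098) and Igf2r (-0.056), the adaptor Gga1 (-0.085) and the receptor Sort1 (0.096). From the control list they were Tfec, a relative of Tfeb (-0.13), Tsc1, an inhibitor of mTORC1 (0.075), the calcineurin subunit Ppp3cb (-0.098) and the Rag GTPase Rragd (-0.20). None of them passed the test, with an adjusted p of 1.00 for each.

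The F test between mice called 9 of the 101 pathway genes, beside 4.67% of all genes. Ctsk, cathepsin K, which degrades bone collagen in osteoclasts, had mouse means of 2.62, 5.09, 5.63 and 5.36 for mice 1 to 4 (adjusted p = 0.000441), a range of 3.01. Atp6v0d2, a pump subunit abundant in osteoclasts, had a range of 2.36 (adjusted p = 0.00296), and Acp5, the acid phosphatase used to stain osteoclasts, had 1.43 (adjusted p = 0.0068). Each of these was lowest in mouse 1. The remaining 6 (Atp6v1h, Prcp, Slc11a1, Abcb9, Sorl1 and Fnip1) had ranges of 0.388 to 0.739. Leaving out mouse 1 reduced the genes called between mice to 2 of 19156.

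**Figure D5:**
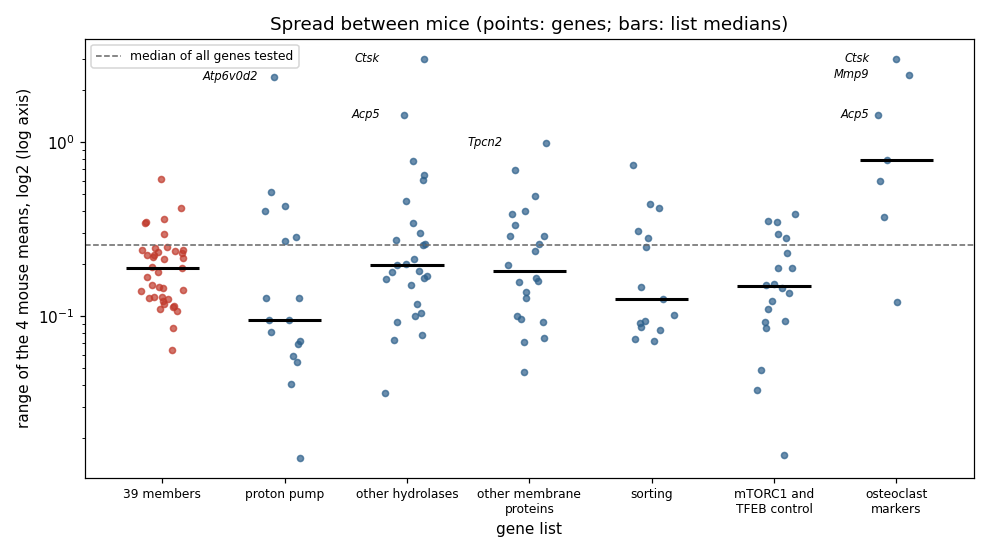
Range of the 4 mouse means of each gene in log2 units (log axis), for the 39 members, 5 lists of other pathway genes and osteoclast markers. Points are genes, bars are list medians and the dashed line is the median of all genes tested, 0.254. The members lie between 0.063 and 0.616, and Ctsk, at 3.01, stands far above them. Ctsk and Acp5 appear both among the other hydrolases and among the osteoclast markers.

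The cell type was checked against marker genes, given as summed linear signal relative to the 75th percentile. All 8 macrophage markers were well above background, with sums of 1369 to 1625 in Y RNA siRNA arrays and 1389 to 1626 in control arrays. Osteoclast markers, 7 of 8 without Calcr, summed to 16.0 to 69.3 in Y RNA siRNA arrays and 19.3 to 81.7 in control arrays, with mouse 1 lowest in both. Of these 7 markers 6 had differences below 0, with a median of -0.21, and 0 passed the test. Ctsk read 2.44, 4.87, 5.45 and 5.15 with the Y RNA siRNA, against 2.81, 5.30, 5.81 and 5.57 with the control siRNA. It was lower with the Y RNA siRNA in all 4 mice, as were Acp5, Dcstamp and Mmp9, and with mouse as a block its unadjusted p was 0.000146 and its adjusted p 0.199. With that block 4 of the 7 had an unadjusted p under 0.05, beside 9.31% of all genes, and 0 were called. Neutrophil markers, 5 of 8 without Ltf, Ngp and Ly6g, summed to 4.50 to 5.98 in Y RNA siRNA arrays and 4.09 to 6.24 in control arrays. Fibroblast markers, 5 of 6 without Pdgfra, summed to 1.09 to 2.97 in Y RNA siRNA arrays and 0.810 to 2.84 in control arrays. Of the 6 dendritic cell markers Itgax alone was well above background, at 1.38 to 7.15 in Y RNA siRNA arrays and 1.38 to 8.03 in control arrays. Lymphocyte markers, 2 of 6 and with Cd3g, Ms4a1 and Cd8a among those not well above background, summed to at most 0.780 in Y RNA siRNA arrays and 0.898 in control arrays, and 0 of 5 erythroid markers were well above background. In such bulk RNA, fewer cells of a type and less RNA per cell cannot be told apart. The part of other cell types in the member values was not tested. The 8 arrays correlated with one another at 0.989 to 0.997 over all genes tested, 48.7% to 50.7% of their spots were well above background, and the first component, 43.1% of the variance, set mouse 1 apart.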

How the data were processed

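Cy3-labelled RNA was hybridised to 8 1-colour Agilent mouse arrays on 1 slide, scanned on 1 day. The scanner files deposited by the authors hold intensity values per spot from Agilent Feature Extraction 10.7.3.1, background-subtracted and detrended per the file headers, with no normalization between arrays. The value table that the authors deposited is on a log2 scale, with column medians of 6.26 to 6.27. Its method is not given in the sources used here, and it served as an alternative.

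Each array had 62976 spots, of which 3671 were control spots. The 75th percentile of an array (9.04 to 9.34) was subtracted from its log2 processed signals, outlier spots were dropped, and spots were averaged per probe. Probes well above background on at least 4 arrays were kept, 26820 of 55681, 0 spots were saturated, and 2929 probes took a newer RefSeq symbol. The brightest kept probe stood for a gene. With no counts, the number of arrays limits the precision.

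The siRNA groups were tested in limma 3.58.1 (R 4.3.3, lmFit and eBayes, two-sided, Benjamini-Hochberg over 19156 genes, threshold 0.05), without a block. Standard errors are moderated. The procedure was tested on data simulated with changes of 1.5-fold and 2-fold, which are larger than the difference of any member. Replicate numbers are mice by the series design. Deviations from the group means correlated between both arrays of a mouse at 0.618, 0.155, 0.582 and 0.284, so the numbers pair the samples. Slide columns 1 and 3 held the Y RNA siRNA and columns 2 and 4 the control, which leaves column and group impossible to tell apart. Row 1 held mice 1 and 2, row 2 mice 3 and 4. Both arrays of a mouse lay side by side in a row. Mouse and place on the slide therefore cannot be told apart, in these correlations or in the F test between mice.

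Alternatives were normexp background, quantile normalization, median centring, the deposited table, other filters, the mean of probes, mouse blocks, array weights, slide row and leaving out arrays or mice. Named members were the 5 largest differences each way, the 5 smallest p between mice, the 5 highest and 3 lowest levels, and Tfeb, Tfe3, Mitf, Lamp1, Lamp2, Mcoln1, Ctsb, Ctsd, Psap and Grn. Other members got single values, and each pathway list gave the 4 smallest p, of which some items are not reported here. Mlst8 and the genes called between mice were named after their values were seen. The members and lists were chosen with earlier results of these data known.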

Additional observations from a re-analysis of the deposited data

Results flagged for a closer look

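With 4 samples in a group, 3 of the 78 member groups tested held 1 sample far from the other three by Dixon's criterion, and chance alone picks out about 1 in 20 groups. Tpp1 read 3.41 in the Y RNA siRNA array of mouse 3, below 3.51 to 3.53 in the other Y RNA siRNA arrays. Its control array of mouse 3, at 3.46, was also the lowest of its group. Lipa read 5.92 in the control array of mouse 4, below 5.97 to 5.98 in the other controls. This is the sample with the lower RNA integrity number, and the Y RNA siRNA array of the same mouse was the lowest of its own group at 5.79. Mitf read 4.74 in the control array of mouse 1, above 4.46 to 4.49 in the other controls. The Y RNA siRNA array of mouse 1, at 4.67, was the highest of its group.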

How the results depend on the processing

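No member passed the siRNA test under any setting tried. The count over all genes stayed at 0 except for 11 with a random mouse block. With the fixed replicate block the count was 0 and the smallest adjusted p of a member was 0.498, and with the random replicate block it was 0.367. The median difference of the members was 0.0027 (quantile) to 0.043 (median centring) by processing, and -0.010 to 0.037 on leaving out arrays or mice, with 19 to 27 members higher. Genes called between mice numbered 3289 with normexp, 1845 with the deposited table, 1419 with array weights and 171 without the filter on dim probes, against 895 in the main setting, and ran from 2 (without mouse 1) to 1213 (without mouse 2), with 156 without mouse 3 and 335 without mouse 4. Members called between mice were 2 with normexp (Ids and Glb1), 2 with the deposited table (Ids and Gm2a), and 1, Ids, with quantile normalization, with array weights and with probes required on all 8 arrays. The median percentile of the members was 87.6 with the mean of all kept probes. Several members changed sign with the processing. Grn gave 0.000082 with normexp, 0.024 with median centring and 0.0074 with array weights. Lamp2 gave -0.00073 with normexp, -0.0058 with quantile and -0.014 with the deposited table. Tfe3 gave 0.0044 with normexp, 0.019 with median centring, 0.031 with the deposited table and 0.027 with weights. Ctsb gave 0.025 with median centring, 0.0028 with the deposited table and 0.014 with weights. Galc gave 0.0070 with median centring and 0.00070 with weights. On leaving out arrays or mice the ranges that crossed 0 were -0.0047 to 0.062 for Ctsd, -0.033 to 0.078 for Lamp2, -0.052 to 0.042 for Tfe3, -0.041 to 0.026 for Ctsb, -0.037 to 0.017 for Grn, -0.086 to 0.052 for Galc, -0.13 to 0.037 for Ids, -0.067 to 0.010 for Lamp1, -0.088 to 0.012 for Cd63 and -0.11 to 0.020 for Mitf. With the mean of all kept probes Ctsa gave -0.022, Idua -0.068, Cln3 -0.0015 and Fuca1 0.015, and Fuca1 gave 0.0052 with median centring. Man2b1 gave 0.019 with median centring and 0.026 with weights, and Manba -0.0060 with normexp, -0.0031 with quantile, -0.013 with the deposited table and -0.0012 with weights. Ranges on leaving out arrays or mice that kept their sign but moved by over 1.5 times were 0.048 to 0.335 for Arsb, 0.041 to 0.184 for Gaa, 0.011 to 0.118 for Gm2a, -0.166 to -0.011 for Ctsh, -0.184 to -0.073 for Psap, -0.182 to -0.088 for Tfeb, 0.075 to 0.199 for Sgsh, -0.127 to -0.062 for Gla, -0.103 to -0.048 for Lipa and 0.032 to 0.086 for Mcoln1. The most positive difference belonged to Sgsh, Naglu, Gm2a or Gaa in place of Arsb under some settings. The cause was not tested.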

Other observations

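Some markers of the cultured cells were called between mice, as was Slc11a1, which is among the 9 pathway genes called above. Of the 8 macrophage markers 2 were called, beside 4.67% of all genes. Lyz2, the lysozyme of macrophages, had mouse means of 8.61, 8.27, 8.18 and 8.27 for mice 1 to 4 (adjusted p = 0.0481 in the F test between mice) and an siRNA difference of -0.047. Cd14, a coreceptor for lipopolysaccharide, had 6.53, 6.11, 6.27 and 6.00 (adjusted p = 0.0464), with an siRNA difference of 0.040. Itgax, an integrin of dendritic cells and some macrophages, was lowest in mouse 1, with 0.464 there and 2.12, 2.92 and 2.09 in mice 2 to 4 (adjusted p = 0.00232). Its siRNA difference was -0.15, lower with the Y RNA siRNA in all 4 mice, with an adjusted p of 1.00, or 0.498 with mouse as a block. Slc11a1, a metal transporter of the phagosome and lysosome membrane, had 6.30, 5.94, 5.61 and 5.83 (adjusted p = 0.0482), with an siRNA difference of -0.10. The F test between mice also called 2 of 5 neutrophil markers (S100a8 and Mpo), 1 of 5 fibroblast markers (Col1a1) and 3 of 7 osteoclast markers. S100a8, Mpo and Col1a1 were each lowest in mouse 1, and Mpo was dim, at a level of -3.20.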
